A study of Mus musculus with 2 samples.

Results

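The miR-193 and miR-365 genes of the mouse are 4 hairpin genes at 2 paralogous places, Mir193b with Mir365-1 on chromosome 16 and Mir193a with Mir365-2 on chromosome 11. They were chosen by gene symbol in the GENCODE M21 annotation and make up 4 of the 2202 miRNA genes counted. MicroRNA sequencing had been run on calf muscle (gastrocnemius) from 2 female mice of the hybrid strain B6CASTF1/J, a cross of C57BL/6 and CAST, aged 10 days. The labels give both samples the same sex, age and tissue, name no treatment, and number them as biological replicates 1 and 2, so there is a single group and no contrast between conditions. The values are therefore the levels of the 4 genes, their spread over 2 animals and the differences between the 2 libraries. Nothing in the counts separates the C57BL/6 allele from the CAST allele, or muscle fibres from the fat, vessels and nerve that a dissected muscle can hold. In such bulk samples fewer cells of a type and less RNA per cell cannot be told apart.

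A miRNA gene is transcribed as a long RNA with a hairpin, from which a 5p and a 3p strand of about the same length are cut. Bases 2 to 8 of a strand, its seed, pair with target mRNAs. In mice, Mir193b and Mir365-1 are known as a cluster that rises in brown fat cells under the regulator Prdm16, and blocking its miRNAs in brown preadipocytes impaired their maturation. Forced miR-193b in mouse C2C12 myoblasts is known to favour brown fat genes over muscle genes, and both tissues have precursor cells in common. Mice without the cluster were later reported to form working brown fat. The paralogous place on chromosome 11 carries the same pair of miRNA families.

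The mature sequences show which reads can be told apart. They are given 5′ to 3′ from RefSeq on build GRCm38.p6, with the seed in capitals, and all 4 genes were matched there by symbol.

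miR-193b-5p: cGGGGUUUugagggcgagauga
miR-193a-5p: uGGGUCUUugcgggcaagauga
miR-193b-3p: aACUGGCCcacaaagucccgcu
miR-193a-3p: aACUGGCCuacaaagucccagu
miR-365-1-5p: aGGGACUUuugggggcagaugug
miR-365-2-5p: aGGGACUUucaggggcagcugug
miR-365-3p, from both Mir365-1 and Mir365-2: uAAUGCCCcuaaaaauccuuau

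The miR-193 3p strands shared their seed and differed at 3 of 22 bases. Counted from the 5′ end, with miR-193a-3p first, the changes were U9C, A20G and G21C. The miR-193 5p strands differed at 5 bases, written with miR-193a-5p first as U1C, U5G, C6U, C11A and A16G, and their seeds were not the same. The miR-365 5p strands shared their seed and differed at 3 of 23 bases, written with miR-365-1-5p first as U10C, G11A and A19C. The miR-365 3p strand was identical at both places. In the RefSeq table of 1738 mature entries, 0 genes outside these 4 carried any of the 5 seeds.

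The hairpins of the miR-365 pair are printed with their longest common stretch of 27 bases in capitals, because a read inside that stretch matches both genes. The hairpins of the miR-193 pair are printed with their mature strands in capitals.

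Mir365-1 hairpin: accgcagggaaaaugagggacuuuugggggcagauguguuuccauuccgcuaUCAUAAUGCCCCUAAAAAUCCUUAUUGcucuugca
Mir365-2 hairpin: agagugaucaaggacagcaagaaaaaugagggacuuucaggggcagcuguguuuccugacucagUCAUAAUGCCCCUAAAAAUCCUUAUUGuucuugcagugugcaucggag
Mir193b hairpin: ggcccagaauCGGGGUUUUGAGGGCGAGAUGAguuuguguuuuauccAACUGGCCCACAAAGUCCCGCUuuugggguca
Mir193a hairpin: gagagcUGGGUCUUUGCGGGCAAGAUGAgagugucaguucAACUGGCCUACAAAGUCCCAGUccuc

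The common stretch covers the whole 3p strand of miR-365 and a few bases on each side. The longest stretch common to the miR-193 hairpins was 10 bases. The 22-base windows of each hairpin were searched on both strands of all annotated miRNA precursors except those overlapping the gene itself. In Mir365-1 6 of 66 and in Mir365-2 6 of 91 recurred in another precursor. In Mir193b 0 of 58 and in Mir193a 0 of 45 did. Reads that aligned to several places were set aside by the authors' counting and stand on no gene, so the counts of Mir365-1 and Mir365-2 cover only reads that reach outside the common stretch. Copies outside annotated precursors were not searched.

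**Figure D1:**
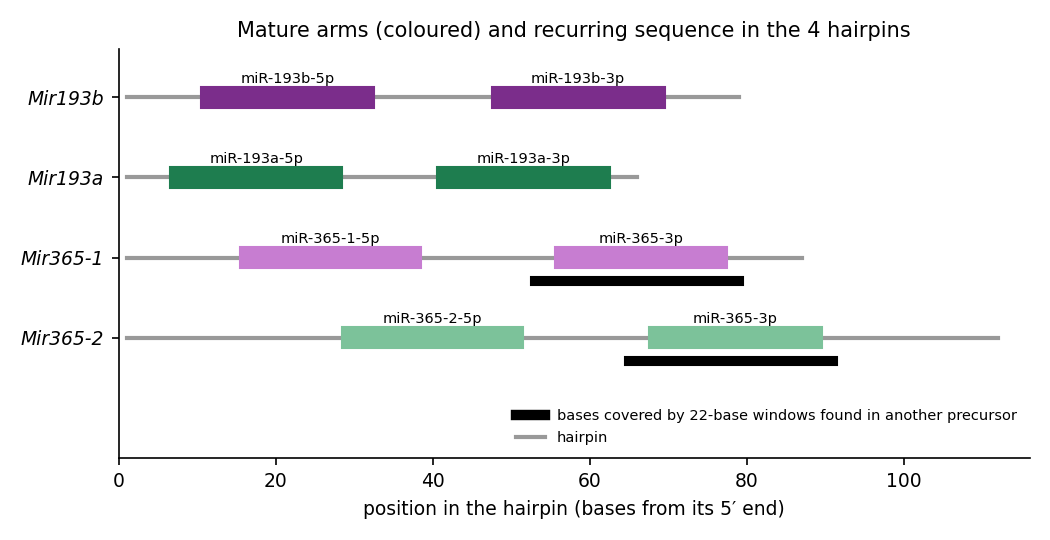
Map of the 4 hairpins by position in bases from the 5′ end, with mature strands as coloured blocks on a grey hairpin line and, in black, bases covered by 22-base windows found in another miRNA precursor. The black bars span 27 bases over the 3p strand of Mir365-1 and of Mir365-2, and Mir193b and Mir193a have none.

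Each pair of genes lies on the plus strand, with the miR-193 gene first. Mir193b (ENSMUSG00000076972.2) is at chr16:13449523-13449601 and Mir365-1 (ENSMUSG00000065449.1) at chr16:13453840-13453926, build mm10, with 4238 bases between them. Mir193a (ENSMUSG00000065395.1) is at chr11:79711969-79712034 and Mir365-2 (ENSMUSG00000065489.1) at chr11:79726400-79726511, with 14365 bases between them. Neither Mir193b nor Mir193a lies inside an annotated gene on its own strand, so neither is exonic or intronic there. For Mir365-1 and Mir365-2 a host gene on the same strand was not searched. Mir193b and Mir365-1 lie within the span of Gm15738, an antisense transcript gene on the minus strand, outside its exons. The nearest protein-coding gene upstream is Mrtfb, which encodes a coactivator of serum response factor and ends 31993 bases before Mir193b. On chromosome 11 it is Rab11fip4, which encodes a Rab11 effector of membrane traffic and ends 13945 bases before Mir193a.

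The libraries held 3510897 sense reads on miRNA genes in replicate 1 and 3949733 in replicate 2. All levels were scaled to 1e6 such reads (CPM), and 3 counts, the limit that a count of 0 allows, equal 0.854 and 0.760 CPM. Reads that aligned to several places were 42.6% and 46.4% of each file. Striated muscle miRNA genes, used to check the tissue label, were present. Of 9 such genes 8 reached 2 CPM in both libraries, the level called detected here, against 332 (15.1%) of all 2202 genes. Mir206 was highest at 105606 ± 14626 CPM (SD, n = 2). The median of the 9 was 77.4 CPM. Mir1a-2 (77.4 CPM), Mir133a-1 (4.07 CPM), Mir1a-1 (3.61 CPM) and Mir133a-2 (1.04 CPM) have 22-base windows that recur in another precursor. Mir499 (339.8 CPM), Mir486 (212.6 CPM), Mir208b (101.4 CPM) and Mir133b (30.8 CPM), like Mir206, have none by this search. Precursors that overlap a gene were left out of it, so reads shared with such a precursor were not looked for. Only exact matches of 22 bases were searched. Reads that match another precursor over fewer bases, or with a mismatch, were therefore not looked for either, so these levels may also leave out reads.

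The miR-193 genes held nearly all counted reads of the 4, where reads inside the common stretch of miR-365 are left out. Together the 4 genes had 459 sense reads in replicate 1. This was 0.0131% of all sense reads on miRNA genes (0.0119% to 0.0143% by Wilson's 95% method). In replicate 2 the 4 genes had 538, which was 0.0136% (0.0125% to 0.0148%). Antisense reads on them numbered 0 in both libraries, also over Mir193b and Mir365-1, where Gm15738 runs on the other strand. Of the 4 genes, 3 were detected in both libraries, Mir193b, Mir193a and Mir365-2, against 332 (15.1%) of all 2202 genes.

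Mir193b, the miR-193 gene of the brown fat cluster, had 312 reads in replicate 1 and 384 in replicate 2. This was 88.9 CPM (Wilson 95% interval 79.5 to 99.3) and 97.2 CPM (88.0 to 107), a mean of 93.0 ± 5.91 CPM (SD, n = 2). It was the highest of the 4 in both animals and ranked 185 of all miRNA genes by mean. Its level lay under the median of the detected genes, 129.7 CPM, and above their lower quartile, 14.4 CPM. Next above it stood Mir186 at 96.5 ± 10.4 CPM and Mir1306 at 97.3 ± 18.7 CPM, next below Mir34a at 91.5 ± 10.2 CPM and Mir148b at 81.3 ± 7.45 CPM. Of these neighbours Mir148b lay outside 1 SD of Mir193b, and the ranges of the 2 animals overlapped between Mir193b and each of the other 3.

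Mir193a, its paralogue on chromosome 11 with the same 3p seed, had 122 and 134 reads in replicates 1 and 2. This was 34.7 CPM (29.1 to 41.5) and 33.9 CPM (28.6 to 40.2), a mean of 34.3 ± 0.582 CPM and rank 218. The animals differed by less than the counting intervals. Its neighbours in level were Mir3544 (34.8 ± 9.15 CPM) and Mir26a-2 (34.5 ± 1.68 CPM) above and Mir187 (33.5 ± 9.15 CPM) and Mir24-1 (33.2 ± 0.269 CPM) below. Of these, Mir24-1 alone had both animals under both values of Mir193a. Mir24-1 and Mir26a-2 have windows that recur in another precursor, unlike Mir193a, so their counts leave out reads set aside.

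Mir365-2 had 20 and 18 reads, 5.70 CPM (3.69 to 8.80) and 4.56 CPM (2.88 to 7.20), a mean of 5.13 ± 0.806 CPM and rank 301. The genes next to it were Mir8114 (5.36 ± 0.0671 CPM) and Gm23935 (5.30 ± 1.77 CPM) above and Mir6516 (4.91 ± 1.92 CPM) and Mir547 (4.81 ± 0.358 CPM) below, with means inside its own range. Mir365-1, the miR-365 gene of the brown fat cluster, had 5 and 2 reads, 1.42 CPM (0.608 to 3.33) and 0.506 CPM (0.139 to 1.85). Its mean of 0.965 ± 0.649 CPM ranked 412, and in replicate 2 it lay under the level of 3 counts. Mir3474 and Mir7067 had the same 5 and 2 reads, and Mir6896 (6 and 1 reads) and Mir147 (4 and 3 reads) stood next. For both miR-365 genes these are levels of reads placed at a single site, not of the miRNA, because reads of the shared 3p strand were set aside. In each library the order was Mir193b, Mir193a, Mir365-2 and Mir365-1, and the counting intervals of neighbours in this order did not overlap.

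**Figure D2:**
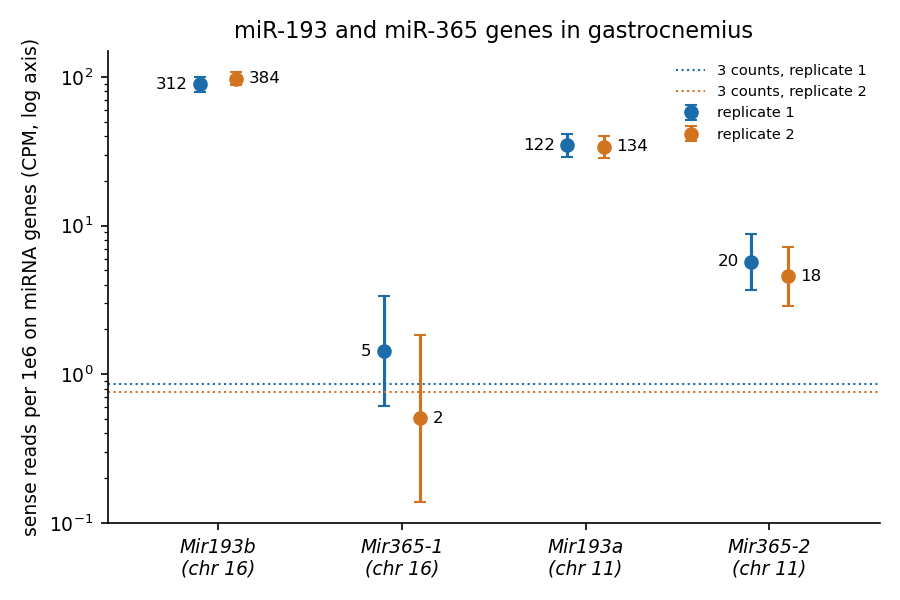
Levels of the 4 genes in CPM on a log axis, 1 point for each animal with its Wilson 95% interval and its read count beside it. Dotted lines mark 3 counts in each library. Mir193b stood at 88.9 and 97.2 CPM, Mir193a at 34.7 and 33.9 CPM, and Mir365-1 with 5 and 2 reads was the lowest.

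**Figure D3:**
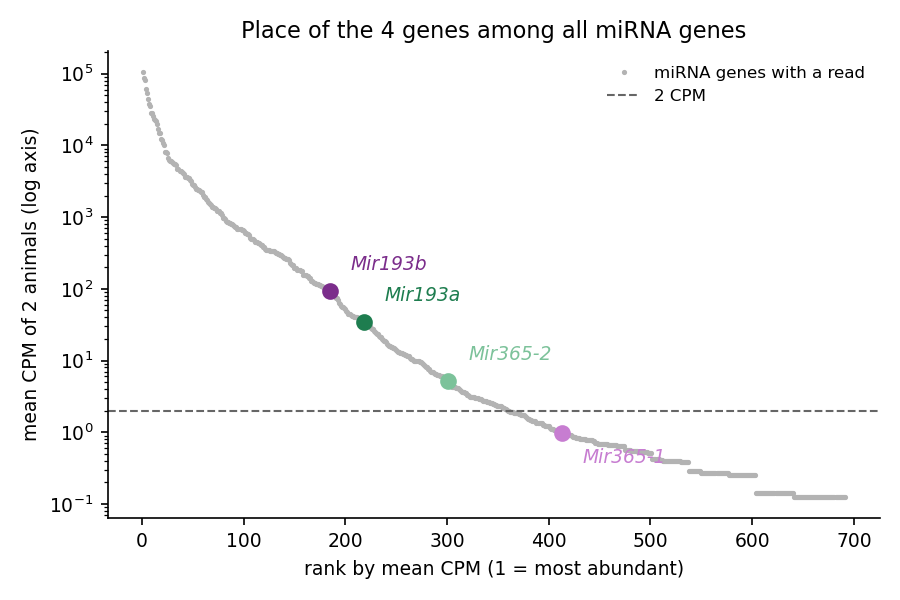
Mean CPM of 2 animals on a log axis against rank for the miRNA genes with at least 1 read, with the 4 genes in colour and 2 CPM as a dashed line. Mir193b ranked 185, Mir193a 218, Mir365-2 301 and Mir365-1 412.

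The chromosome 16 gene led among the miR-193 reads and the chromosome 11 gene among the counted miR-365 reads. A small RNA read spans a whole mature strand of 22 or 23 bases, so counts of these genes were compared without scaling to gene length. Mir193b exceeded Mir193a 2.56-fold in replicate 1 (95% counting interval 2.08 to 3.15) and 2.87-fold in replicate 2 (2.35 to 3.49), a mean log2 ratio of 1.43 ± 0.12 (SD, n = 2). Mir193b thus held 71.9% (Wilson 95% interval 67.5% to 75.9%) and 74.1% (70.2% to 77.7%) of the miR-193 reads. Mir365-1 stood to Mir365-2 at a ratio of 0.25 (0.0972 to 0.643) in replicate 1 and 0.111 (0.0287 to 0.431) in replicate 2. Mir365-1 thus held 20.0% (8.86% to 39.1%) and 10.0% (2.79% to 30.1%) of the counted miR-365 reads. In each library the interval of the miR-365 share lay below that of the miR-193 share. The order of the miR-193 genes rests on 952 reads over both libraries, whereas that of the miR-365 genes rests on 45 and leaves out those of the common stretch.

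Within each locus the miR-193 gene had more counted reads than the miR-365 gene. Mir193b exceeded Mir365-1 62.4-fold in replicate 1 (26.5 to 147) and 192-fold in replicate 2 (52.5 to 702), from 5 and 2 reads of Mir365-1. Their mean log2 ratio was 6.55 ± 1.02. Mir193a exceeded Mir365-2 6.10-fold (3.82 to 9.75) and 7.44-fold (4.57 to 12.1), a mean log2 ratio of 2.72 ± 0.20. How much of the distance between neighbours comes from reads set aside was not tested.

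At other miRNA loci, too, a gene with its own mature sequence neighbours a gene whose mature strand recurs at a second place. Those neighbours lie closer together, with 54 to 650 bases between them, against 4238 and 14365 at the miR-193/365 loci. Counting the miR-193/365 loci, 10 such pairs were compared by the log2 ratio of the copied gene over its neighbour, as a description with no test. Mir365-1 over Mir193b was at -6.55 and Mir365-2 over Mir193a at -2.72. The other 8 pairs ran from -10.03 to 0.53, and in 7 of the 8 the copied gene was the lower. The miR-24 genes were lowest, with Mir24-1 at 33.2 ± 0.269 CPM beside Mir23b at 34918 ± 134 CPM (-10.03) and Mir24-2 at 115.2 ± 1.81 CPM beside Mir23a at 28409 ± 804 CPM (-7.94). Mir29b-1 over Mir29a was at -5.91, Mir29b-2 over Mir29c at -4.33 and Mir194-2 over Mir192 at -1.46. Mir194-1 had 3 and 0 reads in replicates 1 and 2 beside 15 and 4 of Mir215, so few that its plotted ratio depends on the 0.5 added. The highest ratios were those of the miR-16 genes, with Mir16-2 over Mir15b at -0.95 and Mir16-1 over Mir15a at 0.53. The miR-193/365 values lay inside the range of the others. The stretch common to the copies was 27 bases for miR-365, against 22 for miR-194, 23 for miR-16, 25 for miR-29b and 28 for miR-24.

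**Figure D4:**
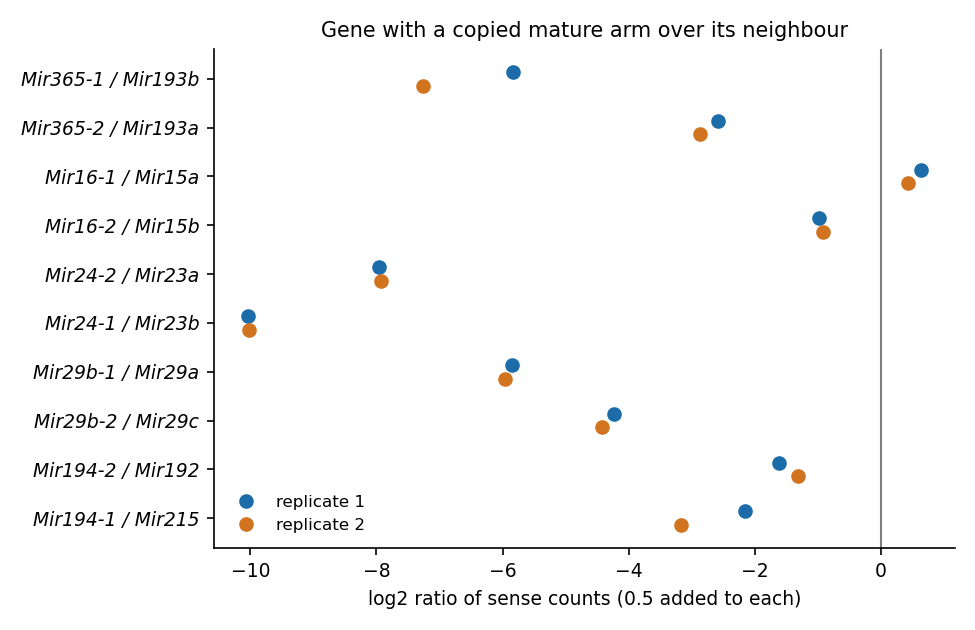
Log2 ratio of sense counts, with 0.5 added to each, of the gene with a copied mature strand over its neighbour at 10 loci, 1 point for each animal. The miR-193/365 loci are the upper 2 rows, with means of -6.55 and -2.72, and Mir16-1 over Mir15a is the 1 pair above 0.

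Between the 2 libraries none of the 3 genes with enough reads for a test was called different. Each gene was compared by a two-sided exact binomial test of its counts given the library totals, adjusted by Benjamini-Hochberg over all genes with at least 10 reads, and called at an adjusted p under 0.05 and at least 2-fold. The test sets 1 library against the other, each of 1 animal, and says nothing of conditions. Of 395 genes tested 28 were called (7.09%), and 163 (41.3%) had an adjusted p under 0.05 without the fold limit. Mir193b, Mir193a and Mir365-2 were tested, 0 of 3 were called, and 0 of 3 had an adjusted p under 0.05.

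For Mir193b the ratio of replicate 1 over replicate 2 was 0.914 (95% interval 0.785 to 1.06, exact adjusted p = 0.375). For Mir193a it was 1.02 (0.795 to 1.32, exact adjusted p = 0.904), on the other side of 1 under DESeq2's size factors. For Mir365-2 it was 1.25 (0.628 to 2.51, exact adjusted p = 0.677). Differences as large as those intervals allow cannot be seen at this depth. With 7 reads in all Mir365-1 was not tested, and its ratio of 2.81 had an interval of 0.460 to 29.5. On the log2 scale the tested genes were at -0.13, 0.04 and 0.32, and the median size over the 332 detected genes was 0.21.

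**Figure D5:**
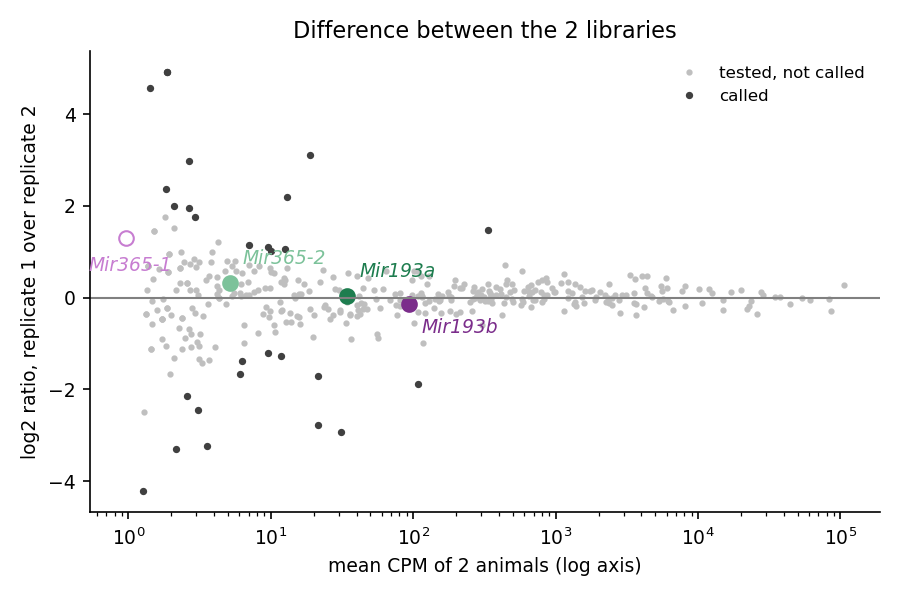
Log2 ratio of replicate 1 over replicate 2 against mean CPM on a log axis for 395 tested miRNA genes, grey where not called and dark where called at an adjusted p under 0.05 and at least 2-fold. Mir193b, Mir193a and Mir365-2 lay near 0 at -0.13, 0.04 and 0.32, and Mir365-1, drawn open, was not tested.

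Other miRNA genes described in brown fat formation were read from the same counts. Of 16 genes known to favour brown or beige fat cells 15 were detected, of which 7 lay above Mir193b. Over all 2202 genes 332 (15.1%) were detected, of which 184 lay above Mir193b. For the 16 listed genes the levels were as follows. Their median was 55.6 CPM and their range 1.16 to 85870 CPM. The highest were Mir378a, which lies in the coactivator gene Ppargc1b, at 85870 ± 12007 CPM, Mir26b at 22658 ± 1966 CPM and Mir196a-2, a Hox cluster gene, at 967.7 ± 56.2 CPM. Mir455 stood at 602.1 ± 42.7 CPM, Mir328 at 446.0 ± 3.74 CPM, Mir30b at 121.3 ± 7.16 CPM and Mir203 at 112.7 ± 26.2 CPM. Below Mir193b were Mir30c-2 (69.1 ± 1.45 CPM), Mir30c-1 (42.0 ± 7.50 CPM), Mir182 (40.1 ± 9.02 CPM), Mir26a-2 (34.5 ± 1.68 CPM), Mir32 (23.6 ± 2.39 CPM), Mir26a-1 (11.99 ± 1.66 CPM), Mir196a-1 (9.83 ± 1.01 CPM) and Mir129-2 (6.27 ± 4.03 CPM). All of these but Mir182 and Mir32 have windows that recur in another precursor, as does Mir196a-2. Their counts leave out reads that aligned to several places. A place below Mir193b is therefore one of counted reads, not of the miRNA. Of the 15 tested, Mir129-2 was called, with 12 reads in replicate 1 and 36 in replicate 2 (exact adjusted p = 0.00648), and 7 had an adjusted p under 0.05 without the fold limit. Over all 395 tested genes the shares were 7.09% and 41.3%, so these counts lie near the background.

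Of 11 genes known to restrain brown fat cells 10 were detected, of which 7 lay above Mir193b. Over all 2202 genes 332 (15.1%) were detected, of which 184 lay above Mir193b. The median of the 11 was 183.2 CPM and their range 1.04 to 2372 CPM. Mir27b was highest at 2372 ± 144 CPM, then Mir93 at 1378 ± 64.2 CPM, Mir106b at 436.2 ± 23.6 CPM, Mir27a at 382.6 ± 10.4 CPM and Mir125b-1 at 358.6 ± 21.7 CPM. Mir155 stood at 183.2 ± 3.72 CPM, Mir125b-2 at 107.6 ± 2.51 CPM and Mir34a at 91.5 ± 10.2 CPM. Mir133b, Mir133a-1 and Mir133a-2, muscle miRNA genes known to repress Prdm16, had 30.8 ± 4.83, 4.07 ± 2.13 and 1.04 ± 0.671 CPM. Of the 10 tested genes 0 were called and 2 had an adjusted p under 0.05 without the fold limit, beside the same 7.09% and 41.3% over all tested genes. Copies with a shared window make up 8 of the 16 and 4 of the 11 genes, and as for miR-365 their counts leave out reads set aside.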

How the data were processed

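Raw sense read counts per miRNA gene were used as deposited by the authors, without normalization. Build mm10 and annotation GENCODE M21 are named in the text deposited with the counts. The aligner was not given in the sources used here, nor were read trimming and filtering. The sense column was identified from the layout and the totals. A gene count sums both strands of a hairpin, so 5p and 3p reads cannot be separated. Summary entries (unaligned, multiply aligned, no feature, ambiguous) stayed out of totals: 43.1% and 38.8% of reads were sense reads on miRNA genes in replicates 1 and 2.

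CPM, Wilson and exact binomial intervals and the binomial test were computed with Python 3.11.15 and SciPy 1.17.1. Intervals and floors cover counting error only, since no molecular identifiers were counted. Log2 ratios had 0.5 added to each count. TMM factors came from edgeR 4.0.16 and size factors from DESeq2 1.42.0, as alternatives. No quasi-likelihood fit was made, since there is 1 group. Both samples carry the same donor entry, read as the strain, and nothing but the replicate numbers and descriptions in the labels says that they are separate animals, so the spread may be in part technical.

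Named genes are the 4 genes, the genes next to each in mean CPM (2 above, 2 below), and the listed genes. The 4 genes and the lists were chosen with earlier results of these data known. Sequences are from RefSeq tables.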

Additional observations from a re-analysis of the deposited data

How the results depend on the processing

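With unstranded counts the smaller library totals moved the mean levels to 111.4 CPM for Mir193b, 41.1 CPM for Mir193a and 6.13 CPM for Mir365-2. Per base of the annotated gene the log2 ratio of Mir193b over Mir193a was 1.17 and that of Mir193a over Mir365-2 was 3.48. Without a fold limit 163 genes were called, and under the other settings (unstranded counts, 2 scalings, a lower minimum, a 1.5-fold limit) 25 to 37, against 28. Under DESeq2's size factors the log2 ratio of Mir193a between the libraries changed sign to -0.019, uncalled as before; the cause is the scaling, which shifted all log2 ratios by -0.054. In 0 settings was any of the 4 genes called. Without replicate 1 and without replicate 2, Mir365-1 stood at 0.506 and 1.42 CPM and the log2 ratio of Mir193b over Mir365-1 at 7.26 and 5.83, while Mir193b stood at 97.2 and 88.9 CPM. With 2 animals, a value without either lies within 1 SD of the mean by construction, so these say nothing of stability. The minimum and the fold limit leave the ratios of the 4 genes as they are and can change only a call. Mir365-1 rests on 7 reads in all, and both miR-365 counts leave out reads of the common stretch. No paired analysis was possible because all samples fall into 1 group.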

Other observations

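Annotated miRNA genes with a 22-base window in another precursor, as in Mir365-1 and Mir365-2, numbered 1032 of 2202, of which 59 (5.72%) were detected. Among the 1170 genes without such a window, as Mir193b and Mir193a, 273 (23.3%) were detected. The median level of the detected genes was 48.4 CPM with a shared window and 183.2 CPM without. Genes with a shared window held 1.59% of sense reads on miRNA genes. On another base, that of all reads in the files, 42.6% and 46.4% aligned to several places. These multiply aligned reads need not come from miRNA genes. How many of those reads come from miR-365-3p cannot be read from counts per gene.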
